A study of Mus musculus with 4 samples.

Results

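The genes described here are 9 that move or modify thyroid hormone inside tissue: the membrane transporters Slc16a10, Slco1c1, Slco3a1, Slco4a1, Slc7a5 and Slc7a8, the deiodinases Dio2 and Dio3, and Crym, which encodes crystallin mu. They were taken as a fixed list of names, chosen with earlier results of these data known. All 9 were found among the 32285 genes of the count tables. The data are single-nucleus RNA counts of the hypothalamus of adult male mice on the C57/BL6NCr background, either wild type or heterozygous for the R384C mutation of thyroid hormone receptor α1 (TRα1+m), which lowers the affinity of the receptor for its ligand. Each library held nuclei pooled from 3 mice of 1 genotype, and each genotype was measured in 2 experimental repeats, so there were 4 libraries and n = 2 per genotype. The mutation is present in every cell of the animal, and a pool gives no value for a single mouse.

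Thyroid hormone reaches the brain mainly as the prohormone T4 and acts on nuclear receptors as T3. Because the hormone crosses membranes through transporters, and because type 2 deiodinase makes T3 while type 3 deiodinase inactivates both forms, the supply of T3 to a cell depends on which of these genes it and its neighbours use. In the hypothalamus, tanycytes, the glia that line the floor of the ventricle, are a known site of type 2 deiodinase, and astrocytes and vessel walls are known to carry transporters.

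Gene positions are on the mm10 build. Slc16a10 spans chr10:40033532-40142258 on the minus strand, Slco1c1 spans chr6:141524368-141570177 on the plus strand, and Slco3a1 spans chr7:74275419-74554780 on the minus strand. Slco4a1 spans chr2:180456245-180474867 on the plus strand, Slc7a5 spans chr8:121881150-121907694 on the minus strand, and Slc7a8 spans chr14:54722209-54781946 on the minus strand. Dio2 spans chr12:90724552-90738438 on the minus strand, Dio3 spans chr12:110279068-110281097 on the plus strand, and Crym spans chr7:120186380-120202111 on the minus strand. All are protein-coding, and reads of introns were counted with those of exons. Slco3a1 overlaps Gm7580 and Dio2 overlaps Gm26512, in both cases on the opposite strand.

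The table of RefSeq start sites on GRCm38.p6 used here gave the 250 bases upstream of 6 of the 9 genes, and those of Slco3a1, Slc7a5 and Crym were not analysed here. The spans above are from GENCODE, whose starts can differ from those of RefSeq. The windows of Slc16a10, Slc7a8 and Dio3 therefore overlap the spans given, and those of Dio2 and Slco1c1 lie apart from their spans. For Slco4a1, 1 of 2 windows lies inside the span. Shown 5′ to 3′ are the windows of Slc16a10 and Slc7a8, whose levels were high in the same neuronal sub-cluster, and of Dio2, which held 2 of the 3 motifs searched. Capitals mark a motif.
Slc16a10, chr10:40142255-40142504, minus strand: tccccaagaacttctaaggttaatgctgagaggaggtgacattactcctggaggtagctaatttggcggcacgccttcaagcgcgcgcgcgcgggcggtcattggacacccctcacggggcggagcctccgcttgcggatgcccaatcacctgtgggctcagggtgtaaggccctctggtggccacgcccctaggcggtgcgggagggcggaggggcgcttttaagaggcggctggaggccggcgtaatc
Slc7a8, chr14:54781887-54782136, minus strand: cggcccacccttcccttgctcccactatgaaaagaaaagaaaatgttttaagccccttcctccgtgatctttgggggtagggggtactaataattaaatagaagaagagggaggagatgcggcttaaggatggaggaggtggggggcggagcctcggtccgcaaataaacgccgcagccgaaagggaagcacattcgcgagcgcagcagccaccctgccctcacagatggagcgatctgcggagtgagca
Dio2, chr12:90739039-90739288, minus strand: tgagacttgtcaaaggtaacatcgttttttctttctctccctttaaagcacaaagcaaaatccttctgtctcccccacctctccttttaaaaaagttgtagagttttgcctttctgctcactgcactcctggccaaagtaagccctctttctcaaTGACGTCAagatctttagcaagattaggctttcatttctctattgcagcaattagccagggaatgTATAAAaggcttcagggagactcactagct
The motifs, searched on both strands, were AGGTCA, the core motif of nuclear receptors, TGACGTCA, the cyclic AMP response element, and TATAAA, the TATA box. They do not overlap in the Dio2 window. Among 32851 upstream windows of the same length, 14.0% held AGGTCA, 1.55% held TGACGTCA and 12.4% held TATAAA. The Dio2 window held TGACGTCA and TATAAA, and the windows of Slc16a10, Slc7a8 and Slco1c1 held none of the 3. Of the 2 windows of Slco4a1, that at chr2:180460728-180460977, inside the span of the gene, held AGGTCA and the other none. The Dio3 window held TATAAA. A match is a run of letters and not a measured binding site.

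The authors' annotation assigned 56386 nuclei to cell types, between 11976 and 16435 per library, with 47260127 to 59112785 unique molecular identifiers (UMIs) per library and a median of 2904 to 4018 UMIs per nucleus. Pairs of libraries shared 44 to 64 annotated barcodes, at most 0.206% of their nuclei. UMIs were summed per library and cell type and are given as counts per 1000000 UMIs of that sum (CPM), as mean ± SD over the 4 libraries. A nucleus is not a replicate, and levels across cell types are given as a description with no test. Neighbours in an order of levels are called separate only where the ranges of their libraries did not overlap. Of the annotated groups, 18 had at least 10 nuclei in every library. Neurons_2 drew 852 of its 864 nuclei from TRα1+m repeat 2, and the vascular and leptomeningeal cells (VLMC) drew 36 of 39 from it, so neither was compared. Libraries of the same repeat resembled each other: between repeats, 25.2% of all genes tested differed in the main neuronal cluster (Neurons_1), 17.4% in astrocytes, 14.1% in tanycytes, 12.4% in oligodendrocytes, 11.4% in oligodendrocyte precursor cells (OPCs) and 6.27% in microglia and macrophages.

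**Figure D1:**
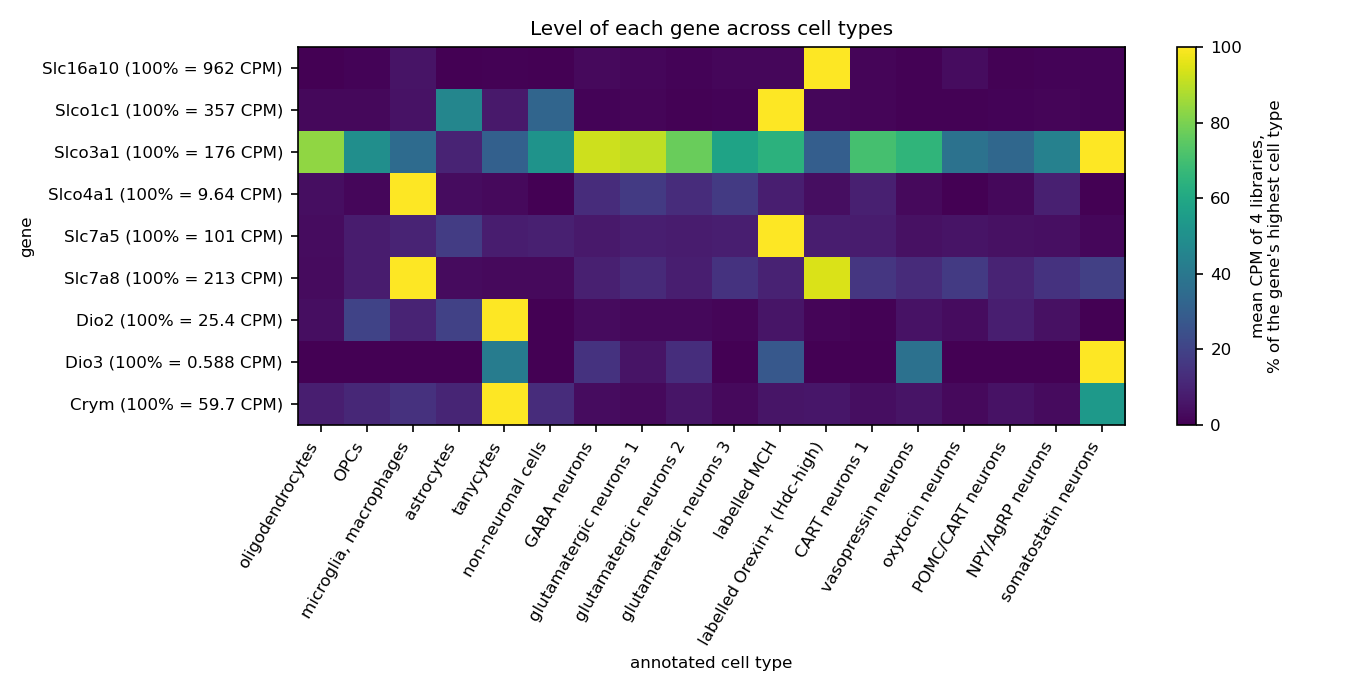
Mean level over the 4 libraries of each listed gene (rows) in the 18 cell types compared (columns), with shades that give the percent of the gene's own highest mean. Slc16a10 reaches 962 CPM in the sub-cluster labelled Orexin+, Slco1c1 and Slc7a5 share the MCH-labelled sub-cluster as highest, and Dio2 and Crym share tanycytes, at 25.4 and 59.7 CPM.

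Slc16a10 encodes MCT10, a carrier of aromatic amino acids and T3. Its UMIs were concentrated in 1 small neuronal sub-cluster that the authors labelled Orexin+. There the level was 1078 CPM in wild type repeat 1, 1141 in wild type repeat 2, 688 in TRα1+m repeat 1 and 939 in TRα1+m repeat 2, a mean of 962 ± 201. All 4 libraries were above every other cell type, and the mean was 19.2-fold that of microglia and macrophages, the next in order, at 50.2 ± 5.61 CPM. These 227 nuclei carried 0.867% of all UMIs and 1814 of the 5219 UMIs of Slc16a10 (34.8%). Oxytocin neurons followed at 32.0 CPM and GABA neurons at 24.0 CPM, and neither range was separate from its neighbour. Astrocytes held 2.53 CPM and oligodendrocytes 2.26 CPM.

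Per nucleus, 92.6% of that sub-cluster held at least 1 UMI of Slc16a10, from 88.5% to 96.3% by library, and a single nucleus held up to 33 UMIs. In oligodendrocytes, where the gene was near 0, the share was 0.38%. The median depth by library was 6451 to 7921 UMIs in the sub-cluster and 1493 to 1812 in oligodendrocytes. With every nucleus thinned to 900 UMIs, the shares were 53.7% and 0.222%. The label of the sub-cluster was compared with its genes. Hdc, which encodes the histamine-making enzyme histidine decarboxylase, stood at 974 ± 110 CPM there and at 5.82 CPM in GABA neurons. Slc18a2, the vesicular monoamine transporter, stood at 512 CPM, and Hcrt, which encodes orexin, stood at 69.6 CPM and was higher in other neurons. The sub-cluster is therefore called Hdc-high below. Among all genes compared, those most like Slc16a10 across the 18 cell types were Ism1, Runx2 and Rnf149, with Pearson r of 0.889, 0.864 and 0.861 over cell types that share libraries.

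Slc7a8 encodes LAT2, a transporter of large neutral amino acids that also carries thyroid hormone. Microglia and macrophages held 233, 191, 175 and 254 CPM in wild type repeats 1 and 2 and TRα1+m repeats 1 and 2, a mean of 213 ± 36.8. The Hdc-high sub-cluster held 188, 296, 137 and 183 CPM in the same order, a mean of 201 ± 67.1. The ranges of these groups overlapped, and without TRα1+m repeat 2 the Hdc-high sub-cluster led at 207 CPM against 199.8 CPM. Both were separate from the third, somatostatin neurons at 40.5 CPM. Within microglia and macrophages, nuclei with fewer than 2 endothelial or mural genes held 245 CPM and those with 2 or more held 25.6 CPM. Osbpl8, Dock2 and Kpna3 were the most alike genes, with r of 0.910, 0.897 and 0.868.

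**Figure D2:**
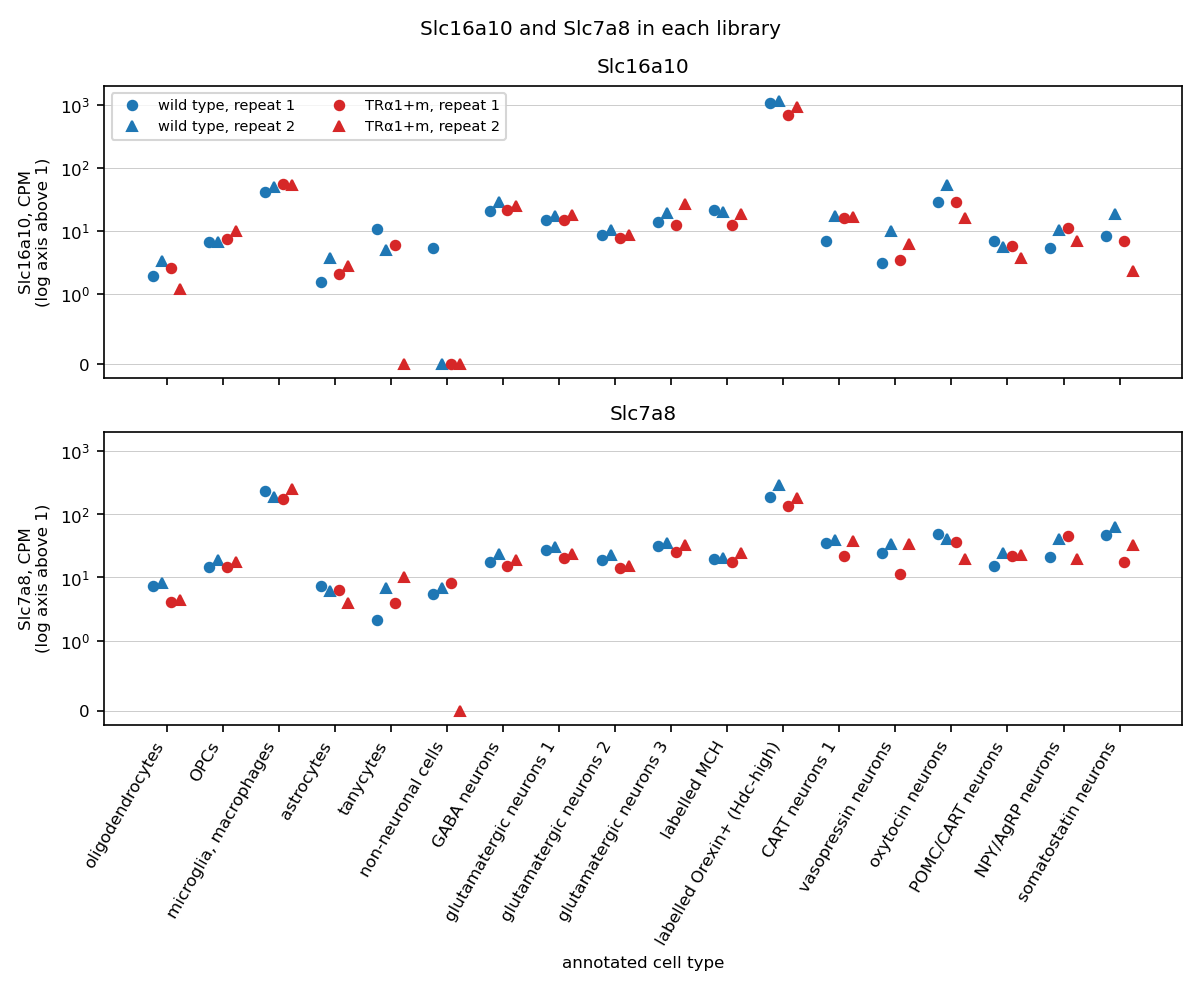
Slc16a10 and Slc7a8 by cell type and library. Slc16a10 is highest in the sub-cluster labelled Orexin+ in all 4 libraries, from 688 to 1141 CPM, and Slc7a8 is high there and in microglia and macrophages.

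Slco1c1 encodes OATP1C1, a transporter with high affinity for T4 that is known from astrocytes and vessels of the rodent brain. Astrocytes held 138, 164, 169 and 184 CPM in wild type repeats 1 and 2 and TRα1+m repeats 1 and 2, a mean of 164 ± 19.4, and 2637 of the 5867 UMIs (44.9%). The sub-cluster labelled MCH neurons held 160, 411, 310 and 547 CPM, a mean of 357 ± 163, and 2262 UMIs (38.6%). The ranges of these groups overlapped. Tanycytes held 25.0 ± 7.69 CPM and GABA neurons 3.44 CPM.

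The MCH-labelled sub-cluster held nuclei with vessel transcripts. In it, 22.3% of nuclei had UMIs of at least 3 genes of a list of endothelial and mural markers, against 0.705% of GABA neurons, and it held 465 of the 980 such nuclei of the series (47.4%). The summed endothelial list reached 819, 2532, 1948 and 3777 CPM in its 4 libraries. In those 465 nuclei Slco1c1 stood at 853, 1267, 931 and 1398 CPM. In the 1517 nuclei of the sub-cluster with fewer than 2 such genes it stood at 33.0, 12.7, 48.4 and 14.8 CPM, and no library overlapped between the 2 classes. Without nuclei holding 2 or more of these genes, astrocytes were the leading cell type at 164 CPM. The VLMC label covered only 2 of the 3493 nuclei with 2 or more of these genes, but the list held no VLMC marker. GABA neurons held 865 of the 3493. The rule was not adjusted for depth, so passing it does not make a nucleus a vessel cell. A nucleus that holds both neuronal and vessel transcripts cannot be told apart here from 2 nuclei under 1 barcode. Ccdc141, Fas and Slc2a1, the last the glucose transporter of the blood-brain barrier, were most like Slco1c1, with r of 0.944, 0.940 and 0.914.

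Slc7a5 encodes LAT1, the light chain of the main exchanger of large neutral amino acids. It had 2222 UMIs, of which 589 (26.5%) lay in the MCH-labelled sub-cluster, at 20.7, 113, 58.0 and 214 CPM, a mean of 101 ± 84.1. As with Slco1c1, the UMIs followed the vessel transcripts: nuclei with at least 3 vessel genes held 130, 333, 190 and 531 CPM, and nuclei with fewer than 2 held 0, 10.8, 3.67 and 21.1 CPM. Astrocytes were next at 9.03, 25.0, 6.92 and 30.5 CPM. In both cell types the libraries of repeat 2 were above those of repeat 1 for each genotype. Slc39a10, Hba-a2 and Tie1, an endothelial receptor, were the most alike genes, with r of 0.888, 0.851 and 0.847.

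**Figure D3:**
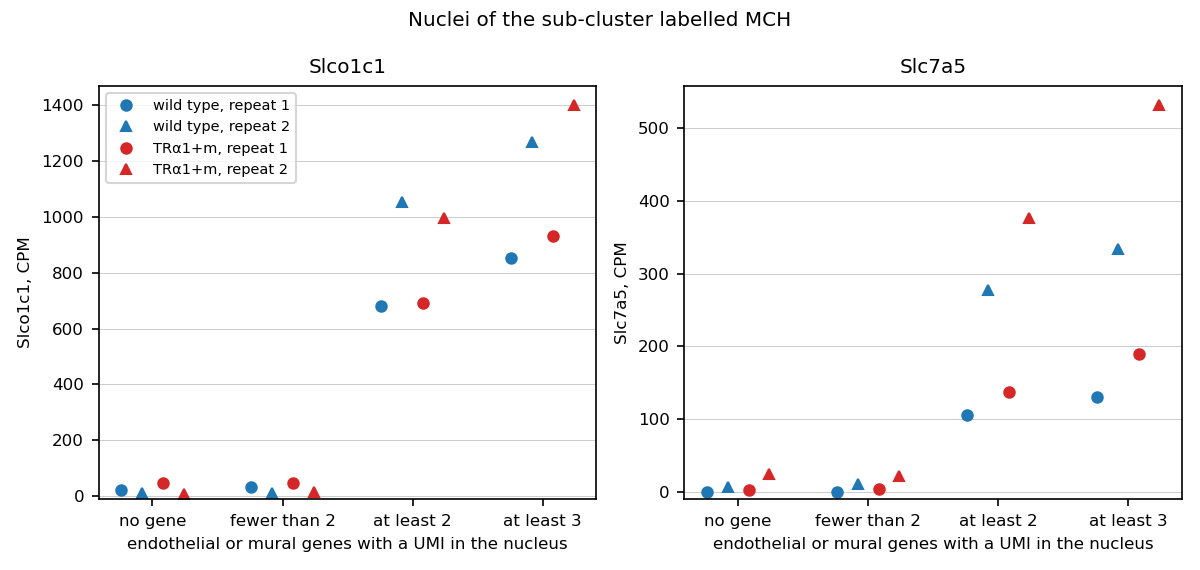
Slco1c1 and Slc7a5 in nuclei of the MCH-labelled sub-cluster, by the number of endothelial and mural genes detected. Slco1c1 lies between 853 and 1398 CPM in nuclei with at least 3 such genes and between 12.7 and 48.4 CPM in nuclei with fewer than 2.

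Slco4a1 encodes OATP4A1, a transporter of T3 and T4. It had 253 UMIs in all. Microglia and macrophages were highest at 1.57, 17.5, 13.0 and 6.48 CPM from 30 UMIs, and Neurons_1 held 1.22 CPM. Differences between cell types of this size rest on few counts.

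Dio2 encodes type 2 deiodinase. It had 333 UMIs, and tanycytes, which carried 1.65% of all UMIs, held 83 of them (24.9%). Their level was 14.0, 28.6, 15.0 and 44.0 CPM in wild type repeats 1 and 2 and TRα1+m repeats 1 and 2, a mean of 25.4 ± 14.1. All 4 libraries were above the ranges of OPCs at 5.08 CPM and astrocytes at 4.95 CPM. By library, 2.90%, 6.43%, 3.53% and 8.43% of tanycytes held a UMI. The sub-cluster labelled tanycytes was not uniform: 240 of its nuclei held at least 2 tanycyte genes and fewer than 2 ependymal genes, 161 the reverse, and 1075 fewer than 2 of either list. Dio2 stood at 49.5, 45.4, 32.9 and 36.6 CPM in the 240 nuclei. In the 161 it stood at 4.52, 0, 0 and 0 CPM, where the libraries of repeat 2 had only 16 and 11 nuclei. The 1075 held 55 of the 83 UMIs, at 12.7, 23.2, 21.9 and 50.9 CPM. The summed ependymal list was 1163 and 1761 CPM in the libraries of repeat 1 and 233 and 291 CPM in those of repeat 2. Enkur, Ccdc78 and Agbl2 were most like Dio2 across cell types, with r of 0.893, 0.891 and 0.885. This likeness used the whole sub-cluster labelled tanycytes, with its ependymal nuclei, so it does not show that these genes share nuclei with Dio2.

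Dio3 encodes type 3 deiodinase. Only 13 UMIs were counted, 12 of them in Neurons_1, and the filter on low counts removed it from every test. Without the filter it was not called in any cell type, with a log2 difference of 0.13 (SE 0.970) between genotypes in Neurons_1. In oligodendrocytes 0 of 10536609 UMIs came from it, which allows up to 0.285 CPM, and in astrocytes 0 of 16104055, which allows up to 0.186 CPM. A difference in Dio3 between cell types or genotypes was not detectable at this depth.

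Crym encodes crystallin mu, a cytosolic protein that binds T3. Tanycytes held 29.0, 48.3, 43.1 and 118 CPM, a mean of 59.7 ± 40.0, and 189 of its 847 UMIs. Somatostatin neurons followed at 19.5, 35.0, 31.8 and 42.3 CPM, and the ranges overlapped. In the 240 nuclei with tanycyte genes the level was 37.1, 48.7, 82.2 and 136 CPM. In the 1075 with fewer than 2 genes of either list it was 31.8, 51.0, 55.6 and 112 CPM. TRα1+m repeat 2 was highest in both classes. Dnah11, Efcab11 and Cdhr3 were the most alike genes, with r of 0.871, 0.853 and 0.839, again over the whole sub-cluster with its ependymal nuclei.

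Slco3a1 encodes OATP3A1, an organic anion transporter that carries T4 and prostaglandins. Its level was broad. Somatostatin neurons held 176 ± 24.1 CPM, GABA neurons 163, glutamatergic neurons 1 159 and oligodendrocytes 147 ± 122, and each of these ranges overlapped with its neighbour. The place of oligodendrocytes comes from pooling the genotypes: in wild type they held 241 and 263 CPM against 184 and 144 CPM in somatostatin neurons, and in TRα1+m 40.7 and 42.0 CPM against 202 and 174 CPM. With either TRα1+m library left out, oligodendrocytes led. Astrocytes were lowest at 17.2 CPM and were separate from the group above them. Cep295, Pde4a and Prickle1 were the most alike genes, with r of 0.791, 0.776 and 0.776.

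The comparison of genotypes asks which of these genes differ where the receptor is impaired. In oligodendrocytes, Slco3a1 RNA was lower in TRα1+m. It stood at 241 and 263 CPM in wild type repeats 1 and 2 and at 40.7 and 42.0 CPM in TRα1+m repeats 1 and 2, with no overlap. The log2 difference, TRα1+m minus wild type, was −2.54 with a standard error of 0.171 (edgeR quasi-likelihood test, adjusted p = 0.0119), which is 5.82-fold. It was the only one of 4 listed genes tested there that was called, against 0.103% of all genes. Because the list was chosen with earlier results of these data known, this count is no test of the list. The median log2 difference of the 4 was −0.36, with 2 above 0 and 2 below, and that of all genes was 0.01. The call was lost without wild type repeat 1 (adjusted p = 0.0741) and without wild type repeat 2 (adjusted p = 0.164), and was kept with the repeat as a block (adjusted p = 3.69e-23, where 4.35% of all genes were called), while the log2 difference stayed between −2.59 and −2.50 in every alternative. Summed oligodendrocyte markers were 8215, 16906, 7384 and 20349 CPM and followed the repeat rather than the genotype. The authors had already named Slco3a1 among the genes that differed in these oligodendrocytes. In their western blots of whole hypothalamus, its protein was not affected. Over all nuclei, Slco3a1 RNA stood at 136 and 129 CPM in wild type and at 126 and 119 CPM in TRα1+m. From single-cell expression, the authors held homogenate protein of their marker genes to be a reasonable picture of oligodendrocytes. Oligodendrocytes held 624 of 7043 Slco3a1 UMIs in wild type repeat 1 and 715 of 7653 in wild type repeat 2. A blot of the whole tissue does not separate oligodendrocytes, so it cannot show whether their Slco3a1 protein followed the RNA. The RNA difference is no measure of the transporter protein.

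The share of oligodendrocytes with a UMI of Slco3a1 gave the same order of genotypes. It was 27.4% in wild type repeat 1 (exact 95% interval 25.2 to 29.6), 34.1% in wild type repeat 2 (31.6 to 36.7), 5.82% in TRα1+m repeat 1 (4.75 to 7.04) and 5.59% in TRα1+m repeat 2 (4.45 to 6.92). Intervals cover counting error only. Nuclei with 3 or more UMIs numbered 35 and 53 in wild type and 2 and 4 in TRα1+m.

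In Neurons_1, Slco3a1 stood at 143 and 135 CPM in wild type and 147 and 144 CPM in TRα1+m. The genotype difference in oligodendrocytes was tested against that in 4 other cell types. Against Neurons_1 it was lower by a log2 value of −2.57 (SE 0.178, adjusted p = 1.49e-04), where 0.182% of all genes were called. Against OPCs the value was −2.09 (SE 0.203, adjusted p = 1.57e-04), where 0.403% were called, and against astrocytes −2.20 (SE 0.312, adjusted p = 0.0192), where 0.47% were called. The call against astrocytes was lost without wild type repeat 2 (adjusted p = 0.439). Against microglia and macrophages the value was −1.31 (SE 0.266, adjusted p = 0.0894), which missed the threshold, where 0.16% were called. Without TRα1+m repeat 2 it passed, at adjusted p = 0.0167.

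Microglia and macrophages themselves held 92.4 and 81.6 CPM of Slco3a1 in wild type and 39.1 and 34.0 CPM in TRα1+m, again with no overlap. The log2 difference was −1.24 (SE 0.286, edgeR unadjusted p = 0.00154), and it was not called over all genes (adjusted p = 1). With the experimental repeat as a block it was −1.25 with adjusted p = 0.00544, and 0.335% of all genes were called in that fit. Nuclei of this cluster with 2 or more vessel genes held 320, 248, 98.1 and 137 CPM, and the rest held 54.8, 51.0, 31.1 and 15.3 CPM, so the order of genotypes was the same in both. OPCs held 99.0 and 98.4 CPM in wild type and 76.7 and 73.8 CPM in TRα1+m (log2 −0.43, SE 0.191), and this was not called. Summed oligodendrocyte markers in wild type repeats 1 and 2 and TRα1+m repeats 1 and 2 were as follows. Microglia and macrophages held 993, 1365, 979 and 1078 CPM, and OPCs held 837, 1062, 809 and 1322 CPM. The part of oligodendrocyte RNA in the Slco3a1 differences of these 2 cell types was not tested. The small cluster of non-neuronal cells, with 34 to 80 nuclei a library and no test, held 196 and 116 CPM in wild type and 24.8 and 26.4 CPM in TRα1+m. Its summed oligodendrocyte markers were 4285, 7948, 4260 and 11006 CPM, and its summed astrocyte markers 4530, 5231, 4718 and 6224 CPM. The authors saw higher doublet scores in this cluster, held such doublets to be unlikely, and left it out as a precaution. In the 12 neuronal sub-clusters the log2 difference of Slco3a1 lay above 0 in 8 and below 0 in 4, from −0.26 to 0.61.

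**Figure D4:**
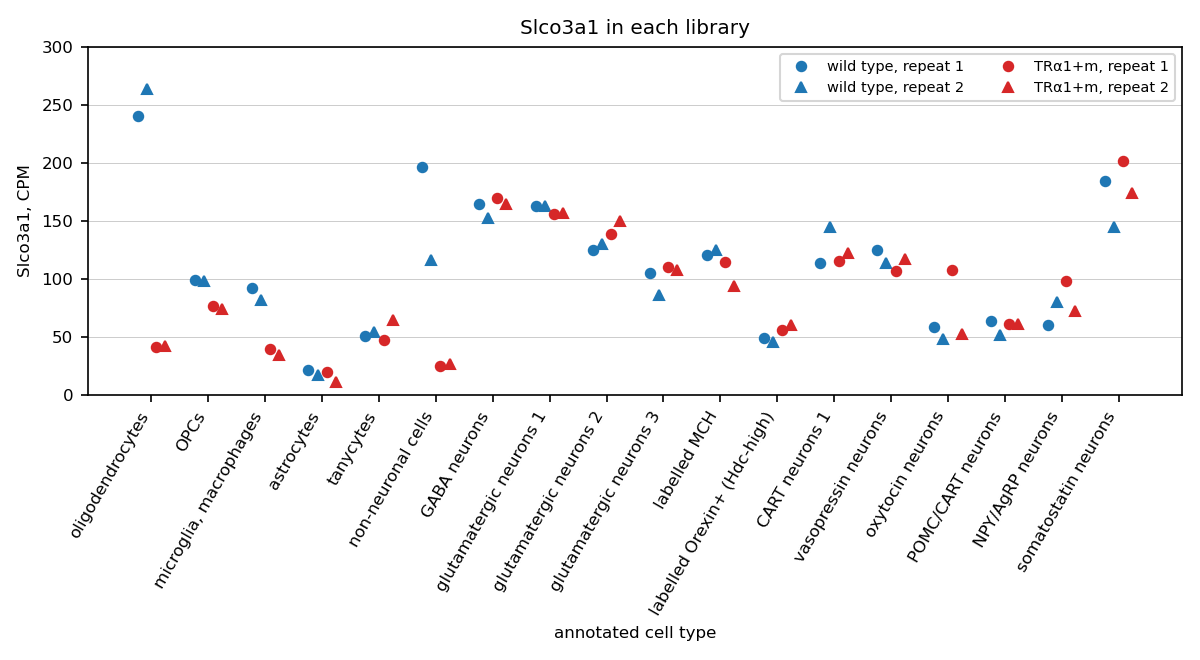
Slco3a1 by cell type, genotype and repeat. In oligodendrocytes the wild type libraries lie at 241 and 263 CPM and the TRα1+m libraries at 40.7 and 42.0 CPM. GABA neurons lie between 152 and 169 CPM in all 4.

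With all 4 libraries and no block for the repeat, none of the other listed genes was called by genotype. With the block, 2 of 34 pairs were called in main cell types other than oligodendrocytes. They were Slco3a1 in microglia and macrophages, where 0.335% of all genes were called, and Crym in tanycytes, where 0.481% were. In astrocytes, where 1.74% of all genes were called with the block, no listed gene was. In the neuronal sub-clusters 3 of 50 pairs were called with it. Of these, 2 were in the MCH-labelled sub-cluster, where 0.896% of all genes were called, and 1 in the Hdc-high sub-cluster, where 0.588% were. The counts that follow are without the block. In the 6 remaining main cell types, where 0% of all genes were called, 34 pairs of gene and cell type were tested with edgeR. Of these, 1, Slco3a1 in microglia and macrophages, had an unadjusted p under 0.05. The 6 include the whole astrocyte cluster and also its astrocytes and its tanycytes, so these pairs share nuclei. In the 12 neuronal sub-clusters, where 0.00367% of all genes were called, 50 pairs were tested, 0 were called and 4 had an unadjusted p under 0.05. DESeq2 called 0 in both sets, and 1, Slco3a1, in oligodendrocytes. With 2 libraries per genotype, a permutation of single values cannot go below an exact two-sided p of 0.333.

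Values in the leading cell types were as follows. Slc16a10 in the Hdc-high sub-cluster had a log2 difference of −0.49 (SE 0.159, adjusted p = 1) and, with the repeat as a block, the same value with adjusted p = 0.00915, where 0.588% of all genes were called. In microglia and macrophages it was +0.22 (SE 0.292). Slco1c1 in astrocytes stood higher in both TRα1+m libraries, with a log2 difference of +0.23 (SE 0.152), and was not called. In the MCH-labelled sub-cluster it was +0.55 (SE 0.456, adjusted p = 1), and with the block +0.63 with adjusted p = 0.0251, where 0.896% of all genes were called. Slc7a5 in that sub-cluster was +0.96 (SE 0.732, adjusted p = 1), and with the block +1.08 with adjusted p = 1.91e-04. In each repeat of that sub-cluster both genes stood higher in TRα1+m, and both were also higher in repeat 2 than in repeat 1. Leaving out a library without the block makes the repeats unequal between genotypes, so the values that follow mix repeat with genotype. Without the block, Slc7a5 there was +2.58 without wild type repeat 2, where it was called (adjusted p = 1.12e-04), and −0.17 without TRα1+m repeat 2. Slco1c1 there was between +0.07 without wild type repeat 1 and +1.32 without wild type repeat 2. These libraries also differed in vessel transcripts, as given above, and the part of those nuclei in the difference was not tested.

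Slc7a5 in astrocytes had a log2 difference of +0.12 (SE 0.804), Slc7a8 in microglia and macrophages +0.01 (SE 0.266), and Slco4a1 in Neurons_1 −0.11 (SE 0.481). Dio2 in tanycytes was +0.40 (SE 0.598). All 4 values changed sign when some library was left out, and none was called. In the sub-cluster labelled tanycytes, nuclei with tanycyte genes held less Dio2 in both TRα1+m libraries than in either wild type library. Those with fewer than 2 genes of either list held more Dio2 in TRα1+m in each repeat. The genotype difference within these classes was not tested. Crym in tanycytes was +1.03 (SE 0.523, adjusted p = 1), and with the block +1.02 with adjusted p = 0.0266, where 0.481% of all genes were called. Crym was +0.19 without TRα1+m repeat 2 and +1.60 without TRα1+m repeat 1. In each repeat Crym stood higher in TRα1+m, and it was also higher in repeat 2 than in repeat 1. The fits with a library left out had no block, here and for the 4 values above. The repeats were therefore unequal between genotypes in them. Slc7a8 lay below 0 in 10 of 12 neuronal sub-clusters, which come from the same 4 libraries, and none was called. In the Hdc-high sub-cluster it was −0.67 (SE 0.246, edgeR unadjusted p = 0.016, adjusted p = 1).

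**Figure D5:**
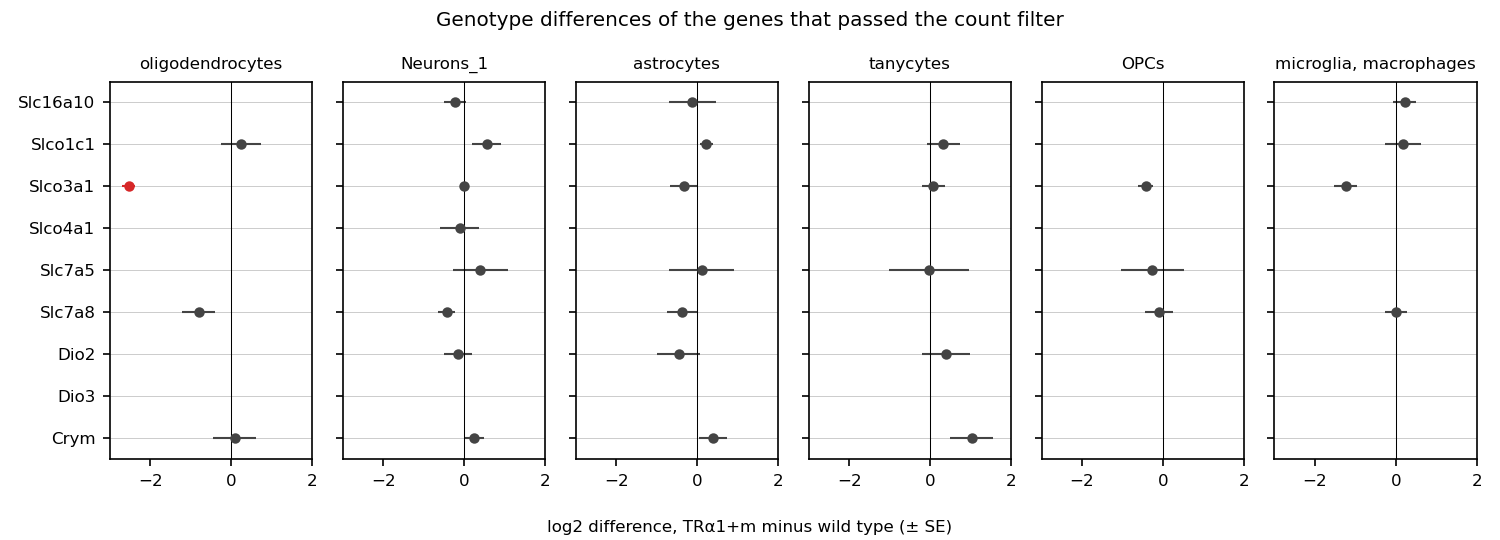
Log2 differences between genotypes, TRα1+m minus wild type, with standard errors, for listed genes that passed the count filter. Shown are oligodendrocytes, Neurons_1, astrocytes, tanycytes, OPCs, and microglia and macrophages, and no neuronal sub-cluster. Slco3a1 in oligodendrocytes, at −2.54, is the only pair called without the repeat as a block.

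Several listed genes differed between the 2 experimental repeats. Slc7a5 was higher in repeat 2, by a log2 value of 1.47 in Neurons_1 (edgeR adjusted p = 3.32e-04), 1.76 in astrocytes (3.46e-12), 2.07 in tanycytes (0.0249), 1.74 in OPCs (0.00970) and 2.00 in the MCH-labelled sub-cluster (8.31e-14), where 21% of all genes differed. In tanycytes, Dio2 was higher in repeat 2 by 1.24 (0.00970) and Crym by 1.10 (5.15e-04), in the libraries with the lower ependymal sums. Slco1c1 was higher by 0.99 in the MCH-labelled sub-cluster (1.45e-06), and in Neurons_1 Slc16a10 was higher by 0.49 (0.00961) and Slc7a8 by 0.33 (0.0355). In the Hdc-high sub-cluster, where 4.2% of all genes differed, none of 3 listed genes was called, with Slc7a8 at an unadjusted p of 0.018. Slco3a1 was not called between repeats in any of the 8 cell types tested, and astrocytes gave its lowest unadjusted p, 0.0104.

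A list of 20 further genes of thyroid hormone transport, binding and metabolism was counted beside these. Of them, 15 could be tested somewhere, in 199 pairs of gene and cell type. None was called by edgeR or by DESeq2, and 6 had an unadjusted p under 0.05. In oligodendrocytes, 7 of the 11 tested lay above 0, with a median log2 difference of 0.11. With the block, Sult1a1, a sulfotransferase that can act on thyroid hormone, was called in astrocytes, where 1.74% of all genes were: it stood at 2.32 and 4.17 CPM in wild type and 11.07 and 6.44 CPM in TRα1+m. Slco2b1 was highest in microglia and macrophages at 393 ± 117 CPM. Slco1a4 was highest in the MCH-labelled sub-cluster at 674 ± 334 CPM and reached 2199 CPM in its nuclei with at least 3 vessel genes.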

How the data were processed

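Nuclei of mouse hypothalamus were profiled with 10x Genomics 3′ chemistry. The authors deposited raw UMI counts per gene and barcode, made with Cell Ranger 5.0.1 on mm10 with intronic reads included, and an annotation table of nuclei made with Seurat. The authors kept nuclei with at least 900 counts and 700 genes and removed predicted doublets by score, so no further doublet caller was run. Strand use in counting is not given in the sources used here.

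Counts of annotated nuclei were summed per library and cell type. Genotypes were compared with edgeR 4.0.16 in R 4.3.3 (quasi-likelihood test, TMM factors, filterByExpr), over 7 main cell types and those 12 neuronal sub-clusters for which each library had 10 or more nuclei, with Benjamini-Hochberg adjustment over all genes of a cell type and a threshold of 0.05. The authors' test over nuclei was not used because nuclei are not replicates. Interactions compared the genotype effect between cell types. Neurons_2, VLMC, sub-cluster 11 and CART neurons 2 had too few nuclei in a library and were not tested, and non-neuronal cells were described only. Alternatives were RLE factors, no filter, DESeq2 1.42.0, bias-adjusted deviances, each library left out, and the repeat as a block. The repeats are shared experiments of both genotypes, so they pair the libraries. Deviations from the genotype means correlated between libraries of 1 repeat with r of 0.541 in oligodendrocytes, 0.667 in Neurons_1 and 0.312 to 0.668 over all groups tested.

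A log2 difference with its standard error is given for each listed gene in the tested main cell type where it was highest. The adjusted p is also given wherever a listed gene was called with or without the block. The members and lists were chosen with earlier results of these data known. The splits of the tanycyte, MCH-labelled and microglia clusters by marker genes and the contrast of repeats were chosen after seeing the data. For the split of tanycytes, 5 tanycyte genes and 4 ependymal genes were used. Likeness between genes is the correlation of log2 of mean CPM plus 1 over 18 cell types, among 10614 genes of at least 20 CPM in a cell type. The test was also run on simulated counts with no difference between repeats, so that run does not cover the repeat differences seen here.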

Additional observations from a re-analysis of the deposited data

Results flagged for a closer look

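The genotype difference of Slco3a1 in oligodendrocytes was compared with that in 4 other cell types by a test of the difference itself (edgeR interaction, TRα1+m minus wild type, log2). It was −2.57 against Neurons_1, −2.20 against astrocytes without tanycytes and −2.09 against OPCs, and these 3 were called. Against microglia and macrophages it was −1.31 (adjusted p = 0.0894) and was not called. The call against astrocytes was lost without wild type repeat 2 (adjusted p = 0.439) and with bias-adjusted deviances (adjusted p = 0.114).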

How the results depend on the processing

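No difference called without the block changed direction. Fits with a library left out had no block, so the repeats were unequal between genotypes in them. Among differences not called, the log2 value crossed 0 when a library was left out for Slc7a5 in the MCH-labelled sub-cluster (−0.17 to 2.58) and in astrocytes (−1.30 to 0.98), Dio2 in tanycytes (−0.47 to 1.02), Slco4a1 in Neurons_1 (−0.57 to 0.58) and Slc7a8 in microglia and macrophages (−0.28 to 0.24). In oligodendrocytes the 1 listed gene called became 0 without wild type repeat 1 or 2, a range of 0 to 1 over the libraries left out. With the replicate block, calls went from 0 to 1 in tanycytes, 0 to 1 in microglia and macrophages and 0 to 3 in neuronal sub-clusters. The block changed no other call of a listed gene within a cell type. It also called more of all genes, with the shares given above. The interactions were not run with it, since they hold each library as a term. Leaving out libraries gave 0 to 1 calls in the sub-clusters, and 0 to 1 in the interactions with astrocytes and with microglia and macrophages. The interaction with astrocytes went from 1 to 0 with bias-adjusted deviances, and that with microglia and macrophages from 0 to 1 with no filter. The cause was not tested. Thinning to 900 UMIs lowered the share of Hdc-high nuclei with Slc16a10 from 92.6% to 53.7%. Slco1c1 in nuclei with vessel genes went from 131 CPM at 2 or more genes to 482 CPM at 3 or more. The leading cell type was kept for 6 to 9 of 9 genes without a library and for 7 of 9 without nuclei holding vessel genes. Over all genes, oligodendrocytes gave 13 calls, 120 with no filter, 74 with DESeq2, 550 with the block and 0 to 196 without a library. With 1 library left in a genotype, that library is assumed to vary like the others. Pools of mice, 2 per genotype, limit every test here.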
